A study of Homo sapiens with 12 samples.

Results

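The clade B serpins are a branch of the serpin family of protease inhibitors, and 8 epithelial members were followed here in cultured human sebocytes: SERPINB1, SERPINB3, SERPINB4, SERPINB5, SERPINB6, SERPINB8, SERPINB9 and SERPINB13. The members were chosen by gene symbol with earlier results of these libraries known, from their TPM values and their response to treatment, and are 8 of 60630 gene identifiers present in both deposited tables. Every value of theirs given below is therefore a description, without a p-value, and the counts of calls support nothing by themselves. Of the 8, 7 passed the filter of a mean of at least 1 TPM (a transcript abundance scaled to transcript length and to the library's total) in both arms, and SERPINB13 did not.

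A serpin presents a flexible reactive centre loop as bait, and when a target protease cuts it the serpin refolds and carries the trapped protease with it. Clade B serpins lack a classical secretion signal and act mostly inside cells, where they hold in check proteases that leak from lysosomes or granules or that are delivered by immune cells. In skin and other squamous epithelia SERPINB3 and SERPINB4 are known for high levels in inflamed or malignant tissue, and SERPINB5 (maspin) as an epithelial protein that does not inhibit proteases.

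RNA was sequenced from SZ95 sebocytes, a single immortalised human sebaceous gland line, in 12 libraries of 3 replicates for each of 4 treatments: PGN+RVT, PGN, LA+RVT and LA. RVT is resveratrol, a plant polyphenol, as the series title gives it, while PGN and LA are not spelled out and are read here as peptidoglycan, a bacterial cell wall polymer, and linoleic acid, a fatty acid. Doses and times are not stated in the labels, every group carries a stimulus, and no untreated group was analysed. All replicates come from 1 cell line and nothing says that they were separate cultures on separate days, so the p-values reflect library-to-library spread, which may be technical.

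Because the tables hold TPM without counts, depth is unknown and counting intervals cannot be given. The number of genes at 1 TPM or above ran from 14489 to 15452 per library. Of 14 sebocyte markers, 9 passed the filter in the PGN arm and 10 in the LA arm, led by KRT7, a keratin of glandular epithelium, at 1632 to 1820 TPM in the PGN+RVT and PGN libraries and 1171 to 1492 TPM in the LA+RVT and LA libraries. The late sebaceous markers AWAT2 and MC5R were listed at 0 in every library. None of 8 neutrophil and lymphocyte markers passed the filter in either arm, and their summed level was at most 1.18 TPM in any library. Of 8 fibroblast markers 2 passed, and DCN was listed at 0 throughout.

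The genes lie in 2 clusters. SERPINB1, SERPINB9 and SERPINB6 lie together on chromosome 6, between positions 2832332 and 2972165 of GRCh38 in the GENCODE 29 annotation. The chromosome 18 cluster runs from 63476761 to 64019779 and holds SERPINB5, SERPINB13, SERPINB4, SERPINB3 and SERPINB8 among 10 clade B genes. SERPINB4 (63637259 to 63644298) and SERPINB3 (63655197 to 63661963) are neighbouring copies on the minus strand, and their promoters are shown because these copies had the lowest log2 differences with RVT of the 7 tested members in both arms. The promoter of SERPINB9 is shown beside them as one from the chromosome 6 cluster. The sequences are the 250 bases before the RefSeq transcription start on GRCh38.p14, at chr18:63661894-63662143, chr18:63644257-63644506 and chr6:2903310-2903559, all on the minus strand. Capitals mark the bases at which SERPINB3 and SERPINB4 differ, and in SERPINB9 the letters TATAAA.
SERPINB3: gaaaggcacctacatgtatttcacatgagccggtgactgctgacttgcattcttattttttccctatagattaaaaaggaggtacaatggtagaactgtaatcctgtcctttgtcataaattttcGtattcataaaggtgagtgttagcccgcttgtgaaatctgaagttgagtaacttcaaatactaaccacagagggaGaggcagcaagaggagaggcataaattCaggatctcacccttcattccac
SERPINB4: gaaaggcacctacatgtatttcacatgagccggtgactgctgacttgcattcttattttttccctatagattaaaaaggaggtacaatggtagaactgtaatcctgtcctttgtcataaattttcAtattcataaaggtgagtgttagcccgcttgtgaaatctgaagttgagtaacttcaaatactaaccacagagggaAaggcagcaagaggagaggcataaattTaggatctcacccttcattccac
SERPINB9: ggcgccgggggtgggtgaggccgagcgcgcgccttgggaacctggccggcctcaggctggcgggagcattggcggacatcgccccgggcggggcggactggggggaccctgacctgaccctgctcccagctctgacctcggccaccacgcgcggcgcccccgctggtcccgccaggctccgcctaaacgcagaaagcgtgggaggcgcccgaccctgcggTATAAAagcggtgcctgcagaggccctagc
SERPINB3 and SERPINB4 share 247 of these 250 bases (98.8%), with differences at 125, 50 and 23 bases before the RefSeq start. By the GENCODE 29 positions given above, both genes start inside these windows. The last bases shown therefore lie within the genes in that annotation. GC content was 40.8% for SERPINB3 and 39.6% for SERPINB4, against 74.4% for SERPINB9 and a median of 58.0% over all 35116 promoters of the RefSeq table.

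Promoters of all 8 members were found in that table, with 4 entries for SERPINB6. Motifs were searched on both strands of the same 250 bases. The AP-1 letters TGANTCA, present in 6.57% of all promoters, occurred in SERPINB5, SERPINB8 and SERPINB13. TATAAA (10.7% of all promoters) occurred in SERPINB8 and SERPINB9, and the STAT letters TTCNNNGAA (6.57%) in SERPINB1 and SERPINB8. The NF-kB consensus (9.96% of all promoters) and the STAT6 motif (STAT letters with 1 more spacer base, 5.38%) had no match in any member's window. SERPINB3 and SERPINB4 had no match to any of these 5 motifs, which says only that the letters are not in these 250 bases.

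Near-identical copies can exchange reads, so the transcripts were compared as well. Of 1774 distinct 100-base stretches in the protein-coding transcripts of SERPINB3, 57 (3.21%) also occurred in SERPINB4 and in no other gene's transcripts, and of the 150-base stretches 0 did. Only identical stretches were counted, so these shares do not show how many reads could be exchanged. Read length was not stated in the labels. SERPINB3 also lies within the span of SERPINB11 on the other strand, a gene listed at 0 in all 12 libraries. SERPINB8 overlaps HMSD on the same strand and shares 4.51% of its 100-base stretches with it.

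On the TPM scale the members covered a wide range, and their order was nearly the same in every group. SERPINB5 was highest and was followed by SERPINB6, SERPINB1 and SERPINB8 in all 4 groups, with SERPINB4 and then SERPINB13 lowest. SERPINB9 stood above SERPINB3 in the PGN+RVT, LA+RVT and LA libraries, and below it in the PGN libraries. The 3 libraries of each member did not overlap with those of its neighbour in this order, in any group. The 8 members together took 425, 406 and 442 TPM in the PGN+RVT libraries, against 451, 409.68 and 408 TPM in the PGN libraries. The sum was 348, 349 and 354 TPM in the LA+RVT libraries, against 359.9, 359.57 and 363 TPM in the LA libraries. The sum overlapped between the groups of the PGN arm and was lower in each LA+RVT library than in any LA library.

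**Figure D1:**
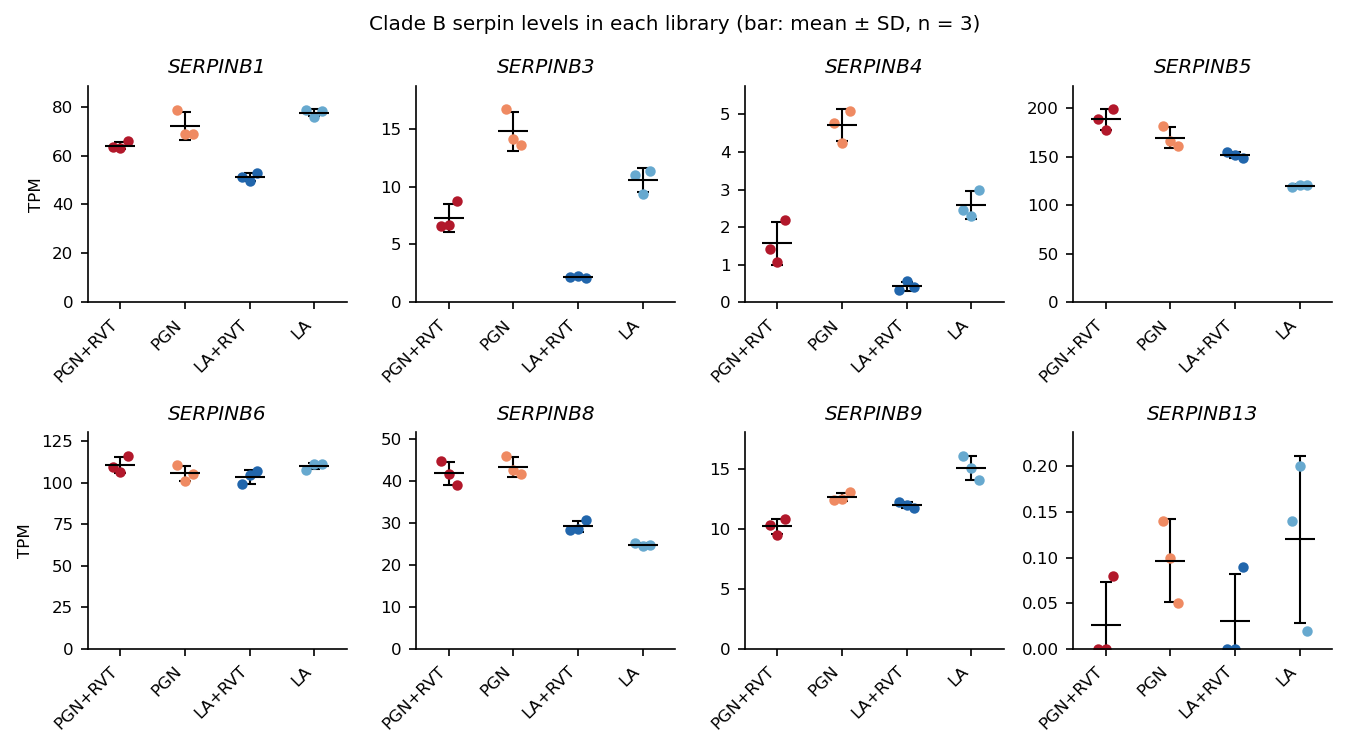
TPM of the 8 clade B serpins in each library, with 1 panel per gene, groups on the x axis and a linear y axis from 0; points are libraries and bars the mean ± SD (n = 3 per group). SERPINB3 and SERPINB4 are lower with RVT in both arms, while SERPINB6 lies between 98.9 and 116 TPM in all 12 libraries.

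The comparisons ask what resveratrol did to these genes under each stimulus. Values were compared on the log2(TPM + 1) scale, which understates differences of low genes, with limma across all tested genes, and a gene was called at an adjusted p under 0.05. In the PGN arm 3 of the 7 tested members were called, all lower (SERPINB3, SERPINB4 and SERPINB9). Among all 14622 genes tested there, 15.6% were called, 10.6% higher and 4.92% lower. In the LA arm 6 of 7 were called, with SERPINB5 and SERPINB8 higher and SERPINB1, SERPINB3, SERPINB4 and SERPINB9 lower. SERPINB4 passed the filter in the LA arm through the LA libraries, since its mean was 0.427 TPM with LA+RVT and 2.58 TPM with LA, so a member passing in this way had to differ. Among all 15409 genes tested there, 15.7% were called, 10.7% higher and 5.07% lower. The groups did not overlap in 4 of 7 members in the PGN arm, where that held for 36.1% of all genes, and in 7 of 7 in the LA arm, where it held for 36.2%. With the library medians equalised, 45.5% of the PGN arm's calls were higher in place of 68.4%, and 49.1% of the LA arm's in place of 67.8%. Since the choice of members used these contrasts, nothing is read from the counts. The median log2 difference of the 7 was -0.16 in the PGN arm and -0.31 in the LA arm, beside 0.064 and 0.036 over all genes.

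SERPINB3 (squamous cell carcinoma antigen 1), an inhibitor of lysosomal cysteine proteases such as cathepsins L, S and K, was lower with RVT in both arms. It stood at 6.57, 6.67 and 8.72 TPM in the PGN+RVT libraries, against 16.7, 14.1 and 13.6 TPM in the PGN libraries. With LA+RVT it stood at 2.18, 2.24 and 2.14 TPM, against 11.0, 9.40 and 11.3 TPM with LA. The groups were apart in both arms. The LA+RVT libraries had the lowest listed values of all 12, though levels were not tested between the arms. The mean with PGN+RVT was 0.495 times that with PGN (log2 difference -0.93 ± 0.13, SE), and the mean with LA+RVT was 0.207 times that with LA (-1.86 ± 0.10).

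SERPINB4 (squamous cell carcinoma antigen 2), a close copy whose loop traps serine proteases such as cathepsin G and mast cell chymase, was lower with RVT as well. It stood at 1.43, 1.08 and 2.20 TPM with PGN+RVT, against 4.78, 4.25 and 5.10 TPM with PGN. The LA+RVT libraries had 0.320, 0.560 and 0.400 TPM, against 2.46, 2.29 and 3 TPM with LA. Again no RVT library reached the level of a library without RVT in its arm. The ratio of means was 0.333 in the PGN arm (log2 difference -1.17 ± 0.18) and 0.165 in the LA arm (-1.33 ± 0.17), where the added pseudocount shrinks the log2 value of so low a gene.

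Added together, SERPINB3 and SERPINB4 came to 8.89 ± 1.76 TPM with PGN+RVT and 19.5 ± 1.72 TPM with PGN (SD, n = 3 each). In the other arm the sum was 2.61 ± 0.163 TPM with LA+RVT and 13.2 ± 1.34 TPM with LA. SERPINB4 made up 13.9% to 20.1% of the sum with PGN+RVT and 22.3% to 27.3% with PGN, ranges that did not overlap. Its share was 12.8% to 20.0% with LA+RVT and 18.3% to 20.9% with LA, ranges that did. Exchange of reads between these copies was not measured and could alter the shares. In bulk RNA, fewer cells expressing a gene and less RNA per cell cannot be told apart.

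SERPINB13 (headpin), another squamous inhibitor of cathepsins K and L, was close to undetected. It was listed at 0, 0 and 0.08 TPM with PGN+RVT, against 0.14, 0.1 and 0.05 TPM with PGN, and at 0, 0 and 0.09 TPM with LA+RVT, against 0.14, 0.2 and 0.02 TPM with LA. The groups overlapped in both arms, and the gene was not tested.

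On chromosome 6, SERPINB1, an inhibitor of neutrophil elastase, cathepsin G and proteinase 3, had groups that did not overlap in either arm. It stood at 63.4, 62.9 and 65.8 TPM with PGN+RVT, against 78.5, 68.8 and 68.8 TPM with PGN, and was not called there (log2 difference -0.16 ± 0.064). In LA+RVT cells it had 51.3, 49.8 and 52.8 TPM, against 78.5, 75.8 and 78.1 TPM with LA, and fell (log2 difference -0.59 ± 0.038). With the library medians equalised the PGN arm value was -0.22 and was called, while without PGN replicate 1 it was -0.10, and it was called in 0 of the 6 fits made without 1 library.

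SERPINB9, the intracellular inhibitor of the killer-cell protease granzyme B, stood at 10.3, 9.54 and 10.8 TPM with PGN+RVT, against 12.5, 12.5 and 13.1 TPM with PGN (log2 difference -0.29 ± 0.075). With LA+RVT it stood at 12.2, 12 and 11.8 TPM, against 16.1, 15.1 and 14.1 TPM with LA (-0.31 ± 0.068). The groups did not overlap in either arm, and the ratio of means was 0.807 and 0.793. In the PGN arm the call was lost without any 1 of the 6 libraries (-0.32 to -0.24), and in the LA arm without any library but LA replicate 3 (-0.36 to -0.26 over the 6 fits).

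SERPINB6, an inhibitor of cathepsin G and trypsin-like proteases found in many tissues, was not called in either arm. It stood at 109, 107 and 116 TPM with PGN+RVT, against 110.43, 101 and 105 TPM with PGN (log2 difference 0.067 ± 0.053). The LA+RVT libraries had 98.9, 104 and 107 TPM, against 108, 111 and 111 TPM with LA (-0.088 ± 0.038). The summed level of the 3 chromosome 6 members was 185 ± 7.06 TPM with PGN+RVT and 190.4 ± 9.82 TPM with PGN, and 167 ± 4.59 TPM with LA+RVT and 203 ± 0.581 TPM with LA (SD, n = 3 each).

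SERPINB5 (maspin), the non-inhibitory member, went the other way from its cluster neighbours SERPINB3 and SERPINB4 in the LA arm. It stood at 189, 178 and 199 TPM with PGN+RVT, against 182, 166 and 161 TPM with PGN, groups that overlapped (log2 difference 0.15 ± 0.062, not called). In LA+RVT cells it had 155, 152 and 149 TPM, against 119, 121 and 121 TPM with LA, and rose (0.33 ± 0.028, a ratio of means of 1.26).

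SERPINB8, an inhibitor of the proprotein convertase furin, stood at 44.7, 41.7 and 39.1 TPM with PGN+RVT, against 46.0, 42.5 and 41.6 TPM with PGN (log2 difference -0.051 ± 0.069, not called). With LA+RVT it stood at 28.4, 28.5 and 30.7 TPM, against 25.2, 24.6 and 24.7 TPM with LA (0.23 ± 0.050). This call in the LA arm was lost without any 1 of the 6 libraries (0.19 to 0.24) and with the library medians equalised (0.18). The overlapping gene HMSD was listed at 40.9 TPM in LA+RVT replicate 1 and at 0.170 to 0.940 TPM in the other 11 libraries. SERPINB8 in that library lay with the other LA+RVT replicates. An antisense gene at the start of SERPINB8, AC009802.1, was at most 0.760 TPM in any library.

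**Figure D2:**
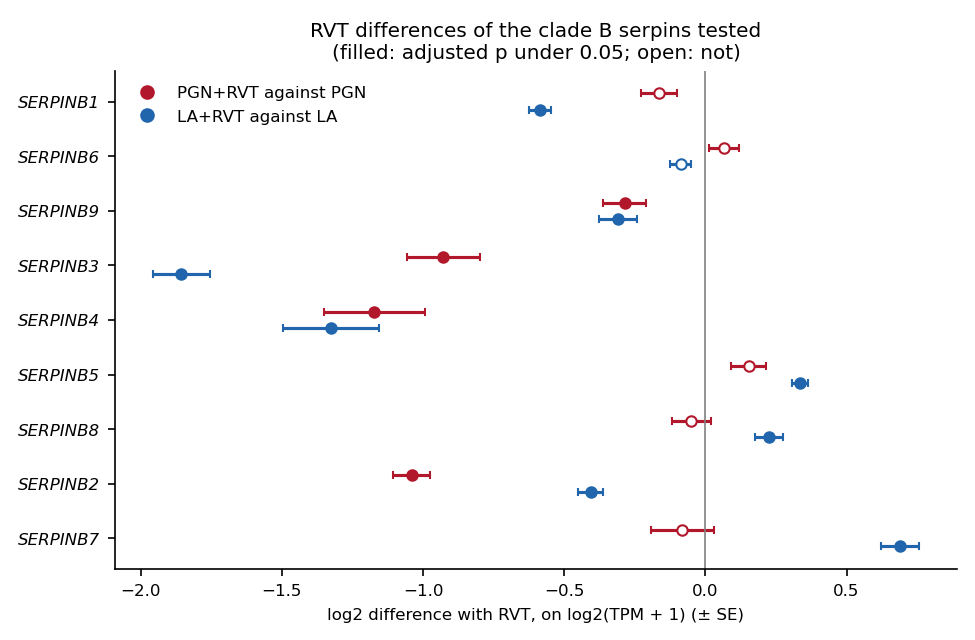
Log2 difference with RVT on the log2(TPM + 1) scale, with SE bars from the limma fit, for the 7 tested members and for SERPINB2 and SERPINB7; the upper point of each gene is PGN+RVT against PGN and the lower one LA+RVT against LA. SERPINB3 has the lowest value of these genes in the LA arm (-1.86) and SERPINB4 in the PGN arm (-1.17); at a pseudocount of 0.1 SERPINB4 is the lower of this pair in the LA arm too (-2.37 against -2.22).

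The difference between the RVT effects of the arms was fitted on all 12 libraries as the effect in PGN cells minus that in LA cells. Among 15177 genes tested, 14.8% were called in this fit, 7.73% higher and 7.03% lower. Of the 7 members, SERPINB3 (0.93 ± 0.16) and SERPINB1 (0.42 ± 0.074) were called higher, so that both were less reduced by RVT in PGN cells, and SERPINB8 (-0.28 ± 0.084) was called lower. SERPINB4 (0.15 ± 0.24, and 0.79 at a pseudocount of 0.1), SERPINB9 (0.023 ± 0.094), SERPINB6 (0.16 ± 0.065) and SERPINB5 (-0.18 ± 0.070) were not called. The call of SERPINB8 did not survive in 10 of 12 fits made without 1 library each (-0.32 to -0.23 over the 12). SERPINB5 was called with library medians equalised (-0.20). The value of SERPINB4 was -0.015 without PGN+RVT replicate 3, so neither its size nor its direction is settled here. Levels were not tested between the stimuli, because the tables of the arms carry different gene names for 1432 shared identifiers and so rest on different annotations.

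Of the 5 remaining clade B serpins, which are not among the members, 2 passed the filter and were tested in the same fits. SERPINB2 (plasminogen activator inhibitor 2), which blocks urokinase, fell in both arms. It stood at 78.6, 78.6 and 84.7 TPM with PGN+RVT, against 178, 171 and 153 TPM with PGN (log2 difference -1.04 ± 0.065, limma adjusted p = 0.00022). The LA+RVT libraries had 50.2, 49.3 and 48.4 TPM, against 66.5, 68.4 and 62.2 TPM with LA (-0.41 ± 0.045, adjusted p = 0.00235). The effects differed between arms by -0.63 ± 0.082 (adjusted p = 0.000477), and the groups were apart in each arm.

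SERPINB7 (megsin), an inhibitor whose loss causes a palmoplantar keratosis, rose in the LA arm. It stood at 27.3, 30.2 and 32.6 TPM with PGN+RVT, against 36.7, 30.7 and 28.5 TPM with PGN (log2 difference -0.081 ± 0.11, adjusted p = 0.656). In LA+RVT cells it had 32.8, 37.3 and 34.8 TPM, against 20.2, 22.6 and 21.1 TPM with LA (0.69 ± 0.066, adjusted p = 0.00136). The effects differed by -0.77 ± 0.13 (adjusted p = 0.00299). SERPINB2 shares 17.4% of its 100-base stretches with SERPINB10, which was at most 1.22 TPM in any library, and SERPINB12 was at most 0.0600 TPM. These 3 genes and SERPINB11 give, with SERPINB7, the 5 other clade B serpins.

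Within the chromosome 18 cluster the direction did not follow gene order. In the LA arm SERPINB5, SERPINB7 and SERPINB8 were called higher and SERPINB4, SERPINB3 and SERPINB2 lower, and SERPINB7 lies between SERPINB3 and SERPINB2. The 5 listed neighbours on chromosome 18 are genes not counted as clade B serpins, and include HMSD, which overlaps SERPINB8. Of these, 3 were tested in the PGN arm and none was called, and 4 were tested in the LA arm. There KDSR, a sphingolipid synthesis enzyme, rose (log2 difference 0.40 ± 0.063, adjusted p = 0.00851) and PHLPP1, a phosphatase, fell (-0.25 ± 0.064, adjusted p = 0.0441). VPS4B, the listed neighbour nearest to SERPINB5, was not called in either arm (0.031 ± 0.081 in PGN cells and 0.030 ± 0.033 in LA cells). On chromosome 6, 11 neighbours were listed, with 9 tested in the PGN arm (2 higher and 1 lower) and 10 in the LA arm (2 higher and 0 lower). NQO2, next to SERPINB6, rose with PGN+RVT (0.33 ± 0.073, adjusted p = 0.0247), TUBB2A rose in both arms (0.47 and 0.28), FOXQ1 rose with LA+RVT (0.45 ± 0.090) and GMDS fell with PGN+RVT (-0.37 ± 0.083).

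**Figure D3:**
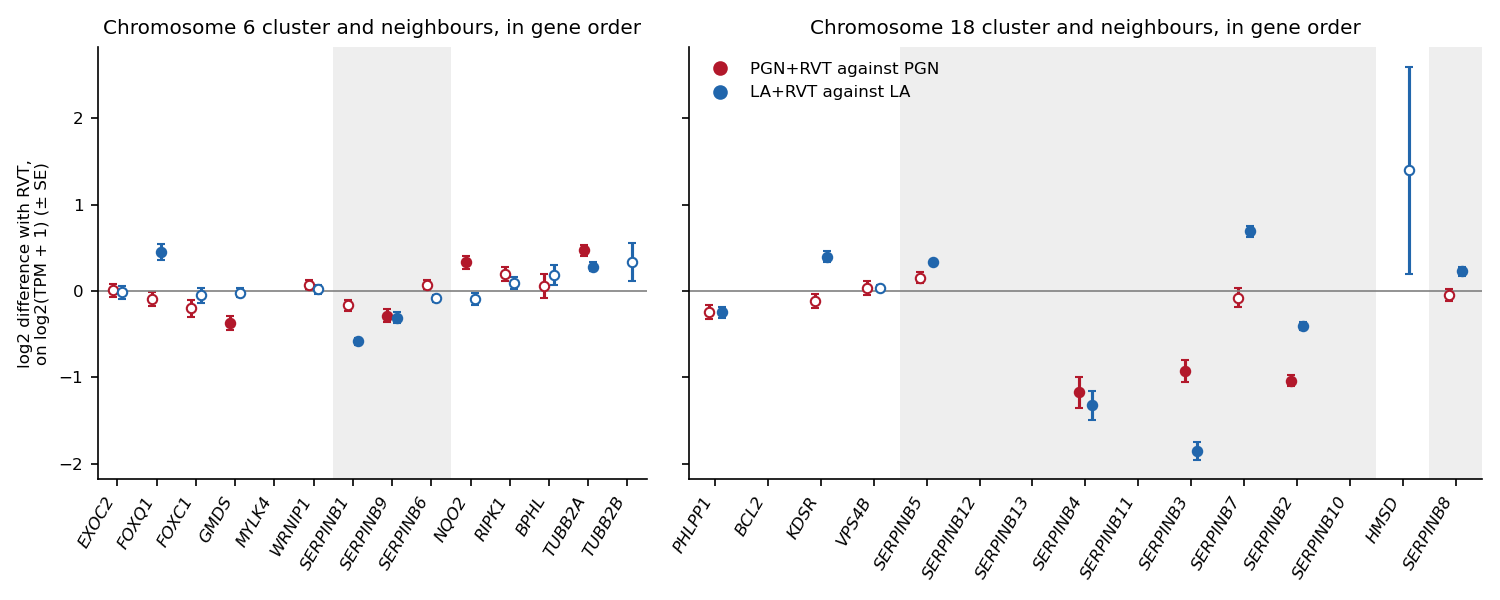
Log2 difference with RVT (y axis, on log2(TPM + 1), with SE bars) of the tested clade B serpins, on a grey ground, and of neighbouring genes, in gene order along chromosomes 6 and 18; filled points passed an adjusted p of 0.05 and genes without a point were not tested. The high point of HMSD comes from LA+RVT replicate 1 (40.9 TPM).

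Proteases were read from a list of 20, which holds targets of clade B serpins and others, such as KLK5, KLK7 and ST14, not named here as targets. Those of neutrophils, mast cells and killer lymphocytes were low or listed at 0, and none passed the filter: ELANE, CTSG and CMA1 were listed at 0 in all 12 libraries, and PRTN3, GZMB and GZMM were at most 0.0800, 0.110 and 0.500 TPM in any library. Of the 12 tested proteases, 3 were called higher and 2 lower in the PGN arm, and 2 higher and 2 lower in the LA arm. Their median log2 difference was 0.089 and -0.039. Of the genes called, FURIN alone is named here as a target of a member, so these counts and medians do not describe the members' targets. CTSL, the cysteine protease opposite SERPINB3, averaged 114 ± 0.978 TPM with PGN+RVT and 106 ± 1.68 TPM with PGN, and 120.0 ± 2.83 TPM with LA+RVT and 124 ± 6.32 TPM with LA (SD, n = 3 each). It was not called in either arm (adjusted p = 0.11 and 0.487), and neither were CTSS and CTSV. CTSH fell with LA+RVT, to 449 ± 10.2 TPM against 548 ± 4.94 TPM with LA (adjusted p = 0.000805). CTSK, another target of SERPINB3 and SERPINB13, was at most 1.02 TPM in any library.

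FURIN, the target of SERPINB8, rose in the LA arm, with 76.9 ± 3.19 TPM with LA+RVT and 65.4 ± 1.96 TPM with LA (log2 difference 0.23 ± 0.044, adjusted p = 0.0159). It was not called in the PGN arm (0.053 ± 0.073). SERPINB8 was called higher in the LA arm too, but that call was lost without any 1 of the 6 libraries. PLAU, the urokinase that SERPINB2 blocks, averaged 107 ± 1.74 TPM with PGN+RVT and 240 ± 9.96 TPM with PGN (log2 difference -1.16 ± 0.044, adjusted p = 2.44e-05). PLAU was not called in the LA arm (-0.032 ± 0.032). The epidermal kallikrein KLK5 rose in both arms (0.46 ± 0.064 and 0.38 ± 0.041), and KLK7 rose in the PGN arm (0.83 ± 0.066, adjusted p = 0.000507).

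**Figure D4:**
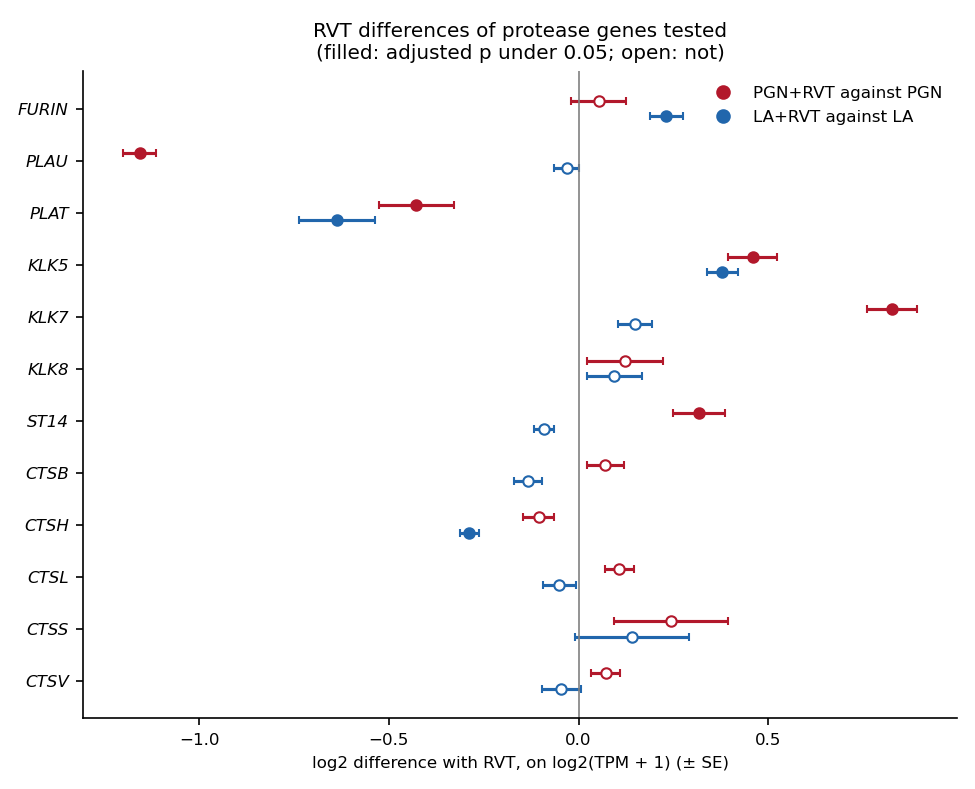
Log2 difference with RVT on log2(TPM + 1), with SE bars, for the 12 listed protease genes that passed the filter in both arms; the upper point of each gene is PGN+RVT against PGN and the lower one LA+RVT against LA, and filled points passed an adjusted p of 0.05. PLAU is lowest in the PGN arm (-1.16) and PLAT in the LA arm (-0.64).

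Of 15 epithelial inhibitors outside the serpin family, 14 were tested in the PGN arm (2 higher and 1 lower) and 13 in the LA arm (1 higher and 4 lower), with medians of 0.072 and -0.093. LXN (latexin), an inhibitor of carboxypeptidases, fell in both arms (-0.49 ± 0.074 and -0.71 ± 0.048). SLPI, an elastase inhibitor secreted by epithelia, rose in the PGN arm (0.26 ± 0.039) and fell in the LA arm (-0.18 ± 0.027).

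Squamous markers differed with RVT in parts of the same comparisons. Of 19 squamous differentiation genes found, 16 were tested in the PGN arm, with 0 higher and 6 lower and a median of -0.11. In the LA arm 15 were tested, with 3 higher and 4 lower and a median of -0.21. Their summed level was 2127 to 2214 TPM with PGN+RVT and 2230 to 2299 TPM with PGN. In the other arm it was 1408 to 1471 TPM with LA+RVT and 1480 to 1530 TPM with LA. LCN2, a gene of this list, averaged 677 TPM with LA+RVT and 870 TPM with LA. That fall exceeded the fall of the mean sum, from 1505.9 TPM with LA to 1431.5 TPM with LA+RVT. The rest of the list was therefore higher in sum with LA+RVT than with LA. LCN2 was not called in the PGN arm, with means of 839 TPM with PGN+RVT and 825 TPM with PGN. FLG (filaggrin) fell with PGN+RVT (-1.86 ± 0.11, adjusted p = 0.000215), as did KRT6B (-0.99 ± 0.071, adjusted p = 0.000372) and SPRR1B (-0.89 ± 0.064, adjusted p = 0.000372). In the LA arm SPRR1B rose (0.61 ± 0.080), as did the stress keratins KRT16 (1.59 ± 0.15) and KRT6A (0.47 ± 0.039), while KRT13 (-1.13 ± 0.16) and KRT17 (-0.32 ± 0.026) fell. KRT16, KRT6A, KRT13 and LCN2 were named after their values were seen. Of 8 basal keratinocyte markers, all tested, 1 was higher and 4 lower in the PGN arm, and 2 were higher and 2 lower in the LA arm. KRT5 fell in both arms (-0.30 ± 0.034 and -0.37 ± 0.029), as did COL17A1 (-0.75 ± 0.099 and -0.61 ± 0.13). The integrin ITGA6 fell in the PGN arm (-0.46 ± 0.082) and rose in the LA arm (0.23 ± 0.037), DST rose in the LA arm (0.24 ± 0.044) and KRT15 in the PGN arm (0.40 ± 0.10), with DST and KRT15 named after their values were seen. Of the sebocyte markers, 9 were tested in the PGN arm (4 higher and 2 lower) and 10 in the LA arm (1 higher and 1 lower). FADS2 (1.07 ± 0.084) and FASN (0.67 ± 0.084) rose with PGN+RVT, and PPARG fell there (-0.72 ± 0.056). KRT7 rose with LA+RVT (0.29 ± 0.024). The part of the squamous, basal and sebocyte markers in the SERPINB3 and SERPINB4 differences was not tested.

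Among 18 genes of signals and transcription factors that act on squamous or serpin genes, all were tested. Of these 5 were higher and 5 lower in the PGN arm and 2 higher and 1 lower in the LA arm. FOSL1, an AP-1 subunit, fell with PGN+RVT (-0.997 ± 0.060) and rose with LA+RVT (0.77 ± 0.051). NFKB1 fell with PGN+RVT (-0.64 ± 0.058) and TP63, the basal epithelial regulator, fell there too (-0.80 ± 0.11). ELF3, an epithelial ETS factor, rose with PGN+RVT (0.22 ± 0.035) and fell with LA+RVT (-0.56 ± 0.049).

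The genes whose levels ran most closely with each member were ranked by Pearson correlation of log2(TPM + 1), centred within each arm, over the 12 libraries and 14126 genes. The 12 points share their treatment groups, so the values are a description and no p is given. PLAC8 and KLF5 stood nearest to SERPINB3 (r = 0.984 for both), with LXN among the first 5 (0.983). ST3GAL4 (0.976) and RPSA (0.975) stood nearest to SERPINB4. SERPINB1 ran with SIK1B (0.981) and LGALS3 (0.978), and SERPINB3 itself was among the first 5 in its list (0.970). SERPINB5 ran with CEP55 (0.987) and SPRY2 (0.986). SERPINB9 ran with STRA6 (0.962) and LOXL4 (0.960), SERPINB8 with SLC25A32 (0.949) and SERP1 (0.918), and SERPINB6 with CGGBP1 (0.945) and ARFGEF1 (0.911).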

How the data were processed

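RNA from 12 SZ95 sebocyte libraries was read from 2 deposited tables of TPM values, 1 for each arm. The submitters' processing notes list GRCh38.p13 as the authors' build and name DESeq2 1.24.0, RSEM 1.3.1 and HISAT2 2.1.0, and do not say which tool made the TPM values. The deposited values carry 2 decimals and no counts, so the depth is unknown and no count model was used.

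Groups and replicates were taken from the labels. Each arm was fitted on its own 6 libraries with limma 3.58.1 (R 4.3.3, trended empirical Bayes) on log2(TPM + 1), for genes whose mean reached 1 TPM in the libraries fitted, with Benjamini-Hochberg adjustment over all genes and a threshold of 0.05. The difference of RVT effects used all 12 libraries and the genes in both tables, matched by Ensembl identifier. The procedure was tested on simulated data. The alternatives were a pseudocount of 0.1, a filter of 5 TPM, no filter, equalised library medians, a replicate block and leaving out each library.

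The members and the gene lists were chosen with earlier results of these data known. The text names the 8 members, the other clade B serpins, from each other list up to 4 genes with the smallest p in either arm, proteases set beside their inhibitor, and the 2 genes most correlated with each member. Other named genes were chosen after their values were seen. Results for serpins of other clades are not reported here. Positions are from GENCODE 29 (GRCh38) and promoters from RefSeq (GRCh38.p14).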

Additional observations from a re-analysis of the deposited data

Results flagged for a closer look

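The results in this section were singled out because the RVT effect differed between the arms in a fit on all 12 libraries, given as the log2 effect in PGN cells minus that in LA cells, with limma and Benjamini-Hochberg adjustment over 15177 genes. Among the members these were SERPINB3 (0.93), SERPINB1 (0.42) and SERPINB8 (-0.28), given as descriptions because the members were chosen with these results known. SERPINB2 (-0.63, adjusted p = 0.000477) and SERPINB7 (-0.77, adjusted p = 0.00299) were the other clade B serpins concerned.

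Among the proteases and other inhibitors, 4 proteases were higher, KLK7 (0.68), ST14 (0.41), CTSB (0.20) and CTSH (0.18), and 1 was lower, PLAU (-1.12, adjusted p = 3.49e-07). SLPI (0.44) and SPINT1 (0.29) were the 2 higher inhibitors and CST3 (-0.48, named after its value was seen) the 1 lower. CTSB passed narrowly (adjusted p = 0.0443) and was called in neither arm alone. Among the cluster neighbours the value was 0.43 for NQO2, -0.35 for GMDS, -0.55 for FOXQ1 and -0.51 for KDSR. Of 18 regulators 3 were higher and 4 lower, among them ELF3 (0.78), NFKB1 (-0.82) and FOSL1 (-1.76, adjusted p = 3.49e-07). Of 16 squamous genes tested 3 were higher and 7 lower. KRT13 (1.09) and KRT17 (0.42) were among the higher, and SPRR1B (-1.50), KRT16 (-1.73), KRT6A (-0.42) and FLG (-1.72), which was below the filter in the LA arm, among the lower. Of 8 basal keratinocyte markers KRT15 (0.50) was higher and ITGA6 (-0.69) lower.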

How the results depend on the processing

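No member reversed its direction among called values under any alternative run. SERPINB3 kept its call in both arms and in the difference under every alternative. At the 5 TPM filter it passed in the LA arm only through the LA libraries (mean 10.6 TPM, against 2.19 TPM with LA+RVT). That alternative is therefore no sign of stability there. SERPINB4 was called in both arms wherever it was tested, which is no sign of stability in the LA arm. There SERPINB4 passed the filter through the LA libraries alone. Its log2 difference was -2.37 in the LA arm and -1.58 in the PGN arm at a pseudocount of 0.1; it is below the 5 TPM filter. Without the filter on low values, 1610 genes were called in the LA arm (2426 with it) and 1384 in the PGN arm (2277 with it). With 1 library left out, 1428 to 1690 genes were called in the LA arm, 1095 to 1861 in the PGN arm and 1714 to 2250 in the difference; 4 to 5 members were called in the LA arm, 2 in the PGN arm and 2 to 3 in the difference. The cause was not tested. Replicate numbers gave no sign of pairing: deviations of same-numbered libraries correlated at -0.07 to -0.007 in the LA arm and 0.008 to 0.041 in the PGN arm. These values cannot tell how the samples were collected, which the labels do not state. With the replicate block 1502 genes were called in the LA arm, 1574 in the PGN arm and 1730 in the difference, with 4, 2 and 3 members among them. Depth, which sets the precision of low genes such as SERPINB4 and SERPINB13, is unknown.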
